A study of Mus musculus with 4 samples.

Results

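The genes described here encode the subunits with which the histone deacetylases HDAC1 and HDAC2 are assembled into corepressor complexes, other than the deacetylases themselves. They were chosen by name, as 31 symbols, and all 31 had a row among the 22809 genes of the deposited table. They comprise 9 genes of SIN3, 9 of NuRD, 7 of CoREST with its recruiting factor REST, 2 of the MIER complex, 2 of MiDAC, and the 2 histone chaperone genes that SIN3 and NuRD share. Poly(A) RNA was sequenced from mouse glomeruli, the filtering units of the kidney. There were 2 control libraries, labelled wild type and untreated, and 2 libraries labelled as podocyte-specific knockout, which the series title gives as Hdac1 and Hdac2; podocytes are the epithelial cells that cover the glomerular capillaries. All mice were 3 weeks old and each library pooled the glomeruli of 2 mice. The design text speaks of 2 independent experiments. For strain, sex and Cre driver the sources used here give nothing. The p-values below measure the spread between such pools, on 2 residual degrees of freedom for each gene. limma also draws each gene's variance toward a trend over all tested genes. Its p-values and SEs therefore rest partly on the spread of other genes. The libraries labelled knockout are called knockout-labelled throughout, because their Hdac1 and Hdac2 transcripts in TPM, given below, were not lower. These totals are of whole glomeruli while the label is podocyte-specific, and which exons are removed is not given in the sources used here. The totals therefore do not check the labels.

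HDAC1 and HDAC2 have little activity alone. In SIN3, a SIN3A or SIN3B scaffold holds them; in NuRD, an MTA protein does so and a CHD3 or CHD4 motor adds nucleosome remodelling; in CoREST, an RCOR protein joins them to the lysine demethylase KDM1A; in MiDAC and the MIER complex, the scaffolds are MIDEAS and the MIER proteins. Most subunits come as paralogues that occupy the same place in the complex, so the paralogue used sets which form of the complex is made.

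The 4 libraries held between 12876939 and 20943138 whole reads recovered from the TPM values. Over all 18612 genes tested the median log2 fold change, knockout-labelled against control, was 0.17 on the log2(TPM + 1) scale. After median-ratio scaling the median was -0.03, over the 18553 genes that then averaged at least 1 TPM. Differences of members are therefore also given relative to the median of all genes. The libraries were not alike in their markers of other cell types. The 14 proximal tubule markers had sums of 42755 and 9338 TPM in the control pools 1 and 2, against 5110 and 5827 TPM in the knockout-labelled pools, and 9 of 14 were lower at an unadjusted p under 0.05. Of the first sum 31062 TPM came from Kap, a gene picked out once its values had been seen, which was at 987, 1004 and 1202 TPM in the other libraries; without it the sums were 11692, 8351, 4107 and 4625 TPM. In that order of pools, sums were 638, 1083, 447 and 641 TPM for the 16 podocyte markers, for the 12 endothelial markers 404, 895, 345 and 727 TPM, for the 10 mesangial markers 192, 242, 231 and 296 TPM, for the 10 distal tubule markers 3041, 2956, 2540 and 2986 TPM, for the 14 immune markers 66.4, 163, 794 and 867 TPM, and for the 12 proliferation markers 66.3, 101, 169 and 184 TPM. Of the immune and of the proliferation markers, 11 of 12 tested were higher at that p. Of the 16 podocyte markers 3 were lower and 1 higher, and of the 10 mesangial markers 1 was lower and 2 higher. Of the 12 endothelial markers 0 were lower and 0 higher. Over all tested genes 4.46% were lower and 13.4% higher at that p. Of the 10 distal tubule markers 5 were lower and 1 higher at that p, with a median log2 fold change of -0.73, while Umod stood at 749, 902, 1189 and 1475 TPM. All 16 podocyte markers were above 0 in every library, and among the immune markers Cd3e was listed at 0 in control replicate 1. In pooled glomeruli, fewer cells of a type and less RNA per cell cannot be told apart, and the part of these markers in the values below was not tested.

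Hdac1 was at 19.3 and 18.6 TPM in the control pools against 22.9 and 22.5 TPM in the knockout-labelled pools, and Hdac2 at 20.2, 24.1, 23.5 and 20.9 TPM in the same order. The Hdac1 groups lay apart with the knockout-labelled pair higher, as they did for 36.7% of all tested genes, and the Hdac2 groups overlapped. For Hdac1 the log2 fold change was 0.25 (SE 0.17, 0.08 relative to all genes, adjusted p = 0.512 by limma). For Hdac2 it was 0.01 (SE 0.19, -0.16 relative to all genes, adjusted p = 0.991). With median-ratio scaling the 2 values were 0.02 and -0.22, and with quantile normalization 0.08 and -0.17.

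Promoters are shown for 4 members whose difference had an unadjusted p under 0.05 and for which RefSeq gave a window, so that a reader can see what lies upstream of the genes described next. Each is the 250 bases before the RefSeq start site on GRCm38.p6, 5′ to 3′ on the strand of the gene. Capitals mark a GC box (GGGCGG, on either strand) or a CCAAT box (CCAAT, on either strand), and no marked matches overlap. Elmsan1, written Mideas by RefSeq, lies at chr12:84218882-84219131 on the minus strand, Kdm1a at chr4:136602724-136602973 on the minus strand, Chd4 at chr6:125095731-125095980 on the plus strand and Rbbp7 at chrX:162760122-162760371 on the plus strand.
Elmsan1: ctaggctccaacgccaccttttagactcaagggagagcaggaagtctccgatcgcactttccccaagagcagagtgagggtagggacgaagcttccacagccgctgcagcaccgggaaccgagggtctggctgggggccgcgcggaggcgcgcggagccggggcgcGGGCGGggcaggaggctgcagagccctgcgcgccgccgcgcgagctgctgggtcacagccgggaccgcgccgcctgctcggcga
Kdm1a: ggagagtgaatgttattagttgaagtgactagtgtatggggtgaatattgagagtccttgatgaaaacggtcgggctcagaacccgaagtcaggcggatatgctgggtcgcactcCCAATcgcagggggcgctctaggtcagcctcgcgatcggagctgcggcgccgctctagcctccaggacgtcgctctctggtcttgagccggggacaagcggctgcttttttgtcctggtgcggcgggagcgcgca
Chd4: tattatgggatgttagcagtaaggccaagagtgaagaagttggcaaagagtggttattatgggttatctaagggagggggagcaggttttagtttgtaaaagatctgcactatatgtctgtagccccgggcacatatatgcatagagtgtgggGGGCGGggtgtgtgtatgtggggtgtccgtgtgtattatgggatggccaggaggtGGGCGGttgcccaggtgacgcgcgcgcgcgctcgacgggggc
Rbbp7: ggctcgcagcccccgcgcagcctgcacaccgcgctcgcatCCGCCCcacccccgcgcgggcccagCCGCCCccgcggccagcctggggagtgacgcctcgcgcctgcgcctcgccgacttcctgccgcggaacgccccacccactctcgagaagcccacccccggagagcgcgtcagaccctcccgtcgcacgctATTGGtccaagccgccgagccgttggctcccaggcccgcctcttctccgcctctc

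The Chd4 window is that of the first of its listed start sites. These 4 windows held 29, 21, 12 and 34 CpG dinucleotides in the order printed, and 71.6%, 59.2%, 54.0% and 76.4% of their bases were G or C. RefSeq windows were found for 24 of the 31 members. Among these 24 the median was 22 CpG (range 4 to 39), against a median of 6 over all 27025 promoters of the same length. A GC box stood in 21 of the 24 (87.5%), against 32.9% of all promoters, and a CCAAT box in 12 (50.0%), against 34.5%. The letters TATAAA, on either strand, stood in 3 (Sin3b, Mbd3 and Mier1; 12.5%, against 13%), and the ETS core CCGGAAG in 3 (Suds3, Mta2 and Dnttip1; 12.5%, against 7.05%). Windows with a GC box belonged to members with positive fold changes, such as Elmsan1 and Rbbp7, and to the negative Sap30 and Rcor1. No window was found for Sap130, Brms1, Arid4a, Chd3, Mta3, Mbd2 and Rest.

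Levels ranged widely between members. Where 4 values follow each other, they are those of control replicates 1 and 2 and then of knockout-labelled replicates 1 and 2. TPM is scaled by gene length, so genes can be compared within a library. The 2 remodeller genes of NuRD, Chd3 and Chd4, stood at the top in every library, between 117 and 231 TPM. Brms1, a SIN3 subunit gene, and Rcor2, the neural CoREST scaffold, were at the bottom, between 0.427 and 1.90 TPM. The median member was at 19.2 and 22.3 TPM in the control pools against 20.6 and 24 TPM in the knockout-labelled pools. By complex, the highest medians were those of the shared chaperones (45.8, 47.9, 63.9 and 55.4 TPM) and NuRD (38.6, 44.4, 45.9 and 57.9 TPM), with NuRD above the chaperones in knockout replicate 2 and below them in the other libraries. SIN3 (18.4, 18.1, 16.8 and 19.3 TPM) and CoREST (18.1, 23.8, 25.7 and 27.6 TPM) lay close to each other in control replicate 1, and MiDAC (10.3, 14.6, 18.3 and 22.5 TPM) and MIER (8.52, 11.9, 12.4 and 12.5 TPM) were lowest in the controls.

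**Figure D1:**
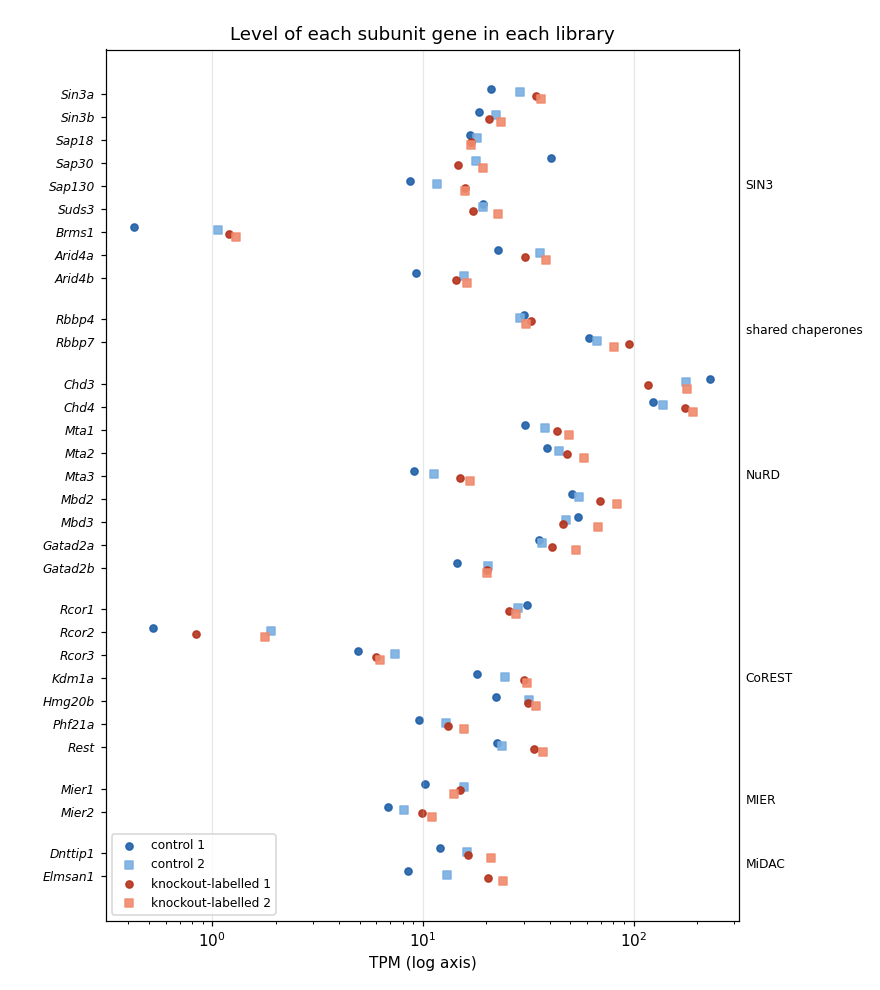
TPM of each of the 31 subunit genes (log axis) in control libraries 1 and 2 (blue) and knockout-labelled libraries 1 and 2 (red), grouped by complex, 1 point per library with no averaging. Chd3 and Chd4 lie between 117 and 231 TPM, and both knockout-labelled values of Elmsan1 and Rest lie to the right of both control values.

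Brms1 averaged under 1 TPM, which left 30 members in the test. None was called by limma (lowest adjusted p = 0.148), where 1 of 18612 genes was called in all (0.00537%), and limma-voom on the recovered reads also called 0 members. At an unadjusted p under 0.05, 8 of 30 members had higher values (26.7%) and 0 had lower ones, against 13.4% and 4.46% of all tested genes. Both knockout-labelled values lay above both controls for 16 of 30 members (53.3%) and below them for 1, against 36.7% and 14.3% of all tested genes. With median-ratio scaling these 2 counts were 12 and 6, against 24% and 25.6% of all genes, and the 8 became 1, where 9.47% of all genes were higher. Under that scaling the fold changes of Sin3b, Suds3, Rbbp4, Mbd3, Rcor3 and Mier1 turned from positive to negative. Quantile normalization left 4 members higher at that p, against 11.2% of all genes, and limma without trend left 3, against 12.8%; these shares of the members were near or below those of all genes. Single libraries changed the count of 8, which was 3 without control replicate 1, 16 without control replicate 2, 1 without knockout replicate 1 and 0 without knockout replicate 2. In the same fits the shares of all tested genes were 11.9%, 27.1%, 6.34% and 5.27%, so the members' counts fell and grew with them. Without control replicate 2, limma called 2 members, Elmsan1 upward (adjusted p = 0.0307) and Sap30 downward (adjusted p = 0.0427), among 2224 of 18448 genes called. Of the 30 members, 25 were also higher in control replicate 2 than in control replicate 1, by a median of 0.28 over the 30, the same as the median of 0.28 over all tested genes.

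MiDAC, the mitotic deacetylase complex, had the largest difference of any member. Its scaffold gene Elmsan1 (chromosome 12, 84149176 to 84218881, GRCm38, minus strand) was at 8.52 and 13 TPM in the control pools against 20.3 and 24 TPM in the knockout-labelled pools, from 434, 528, 1106 and 1530 reads. The groups did not overlap, and control replicate 1 was the lowest. The means were 10.7 ± 3.15 and 22.2 ± 2.64 TPM (SD, n = 2 each), and the log2 fold change was 1 (SE 0.26, 0.83 relative to all genes, adjusted p = 0.148 by limma). It was 0.72 without control replicate 1 and between 0.72 and 1.28 over the settings tried. Dnttip1, the gene of the subunit that dimerises the complex and binds nucleosomes, was at 12, 16.1, 16.4 and 21 TPM, with the log2 fold change at 0.39 (SE 0.24, adjusted p = 0.470). Its lowest knockout-labelled value stood just above its highest control. Exons of Dnttip1 share 10.7% of their bases with other genes, and without a known strand setting reads there cannot be assigned with certainty.

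NuRD had the largest count of members higher at an unadjusted p under 0.05, 3 of 9 (33.3%). In 6 of 9 (66.7%) the groups were apart and higher. Over all tested genes these shares were 13.4% and 36.7%. MiDAC and the shared chaperones each had 1 of 2 genes higher at that p and 2 of 2 apart and higher. Its median log2 fold change was 0.36 over 9 members, or 0.19 relative to all genes, with values from -0.48 to 0.60.

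The 2 remodeller genes had fold changes of opposite sign. Chd4 (chromosome 6, 125095981 to 125130591, plus strand), the main NuRD ATPase, was at 124 and 138 TPM in the control pools against 175 and 192 TPM in the knockout-labelled pools, from 5909 to 12861 reads. The groups lay apart, with means of 131 ± 9.81 and 183 ± 11.9 TPM (SD, n = 2 each) and the log2 fold change at 0.48 (SE 0.16, adjusted p = 0.221). Chd3, the paralogous ATPase (chromosome 11, 69343273 to 69369406, minus strand), was at 231 and 177 TPM in the control pools against 117 and 178 TPM in the knockout-labelled pools, so control replicate 2 and knockout replicate 2 were alike and the groups overlapped. The log2 fold change of Chd3 was -0.48 (SE 0.27, adjusted p = 0.416); leaving out control replicate 1 gave -0.29 and leaving out knockout replicate 1 gave -0.18. The small RNA gene Gm22442, named after its values were seen, lies within the Chd3 locus (69350518 to 69350661) and was at 749, 674, 478 and 527 TPM in the same order. It held 722, 519, 493 and 635 reads of its own, beside 13074, 7976, 7070 and 12564 reads of Chd3, and whether the 2 genes share reads was not tested.

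The MTA scaffolds, which bind the deacetylases directly, were each apart and higher. Mta1 was at 30.5, 37.8, 43.0 and 49.2 TPM (log2 fold change 0.43, SE 0.19), Mta2 at 38.6, 44.4, 48.0 and 57.9 TPM (0.34, SE 0.18) and Mta3 at 9.02, 11.3, 15.0 and 16.7 TPM (0.60, SE 0.21), with adjusted p of 0.320, 0.396 and 0.236 by limma. Mta2 was the most abundant in every library and Mta3 the least. Mta3 made up 11.5% and 12% of the summed TPM of the 3 genes in the control pools against 14.2% and 13.5% in the knockout-labelled pools.

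MBD2, which reads methylated CpG, and MBD3, which does not bind it well, define alternative NuRD complexes. Mbd2 was at 50.7, 55.0, 68.8 and 83.7 TPM, with groups apart, means of 52.9 ± 3.01 and 76.2 ± 10.5 TPM (SD, n = 2 each) and the log2 fold change at 0.51 (SE 0.17, adjusted p = 0.221). Mbd3 was at 54.2, 47.5, 45.9 and 67.5 TPM, with overlapping groups and the highest and lowest values both among the knockout-labelled libraries (0.13, SE 0.23). The GATAD2 genes encode the proteins that bridge the MBD protein to the CHD motor. Gatad2a, at 35.7, 36.8, 40.9 and 53.4 TPM, was apart (0.36, SE 0.19, adjusted p = 0.402), and Gatad2b, at 14.5, 20.3, 20.2 and 20.2 TPM, was low in control replicate 1 alone.

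The histone chaperones RBBP4 and RBBP7 hold histones in both SIN3 and NuRD. Rbbp7, an X-linked gene, was at 61.5 and 66.9 TPM in the control pools against 95.3 and 80.2 TPM in the knockout-labelled pools, with groups apart, means of 64.2 ± 3.83 and 87.7 ± 10.7 TPM (SD, n = 2 each) and the log2 fold change at 0.44 (SE 0.17, adjusted p = 0.264). Rbbp4 was at 30.2, 29.0, 32.6 and 30.7 TPM. Its groups were narrowly apart, with the log2 fold change at 0.09 (SE 0.16), and 18.0% of its exon bases lie in other genes too.

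CoREST had 2 of 7 members higher at an unadjusted p under 0.05 (28.6%, against 13.4% of all tested genes). Its median log2 fold change was 0.30, or 0.13 relative to all genes. The 2 higher members were the recruiting factor Rest and the enzyme gene Kdm1a. Rest, the zinc finger repressor that brings CoREST and SIN3 to neuronal genes (chromosome 5, 77265491 to 77286432, plus strand), was at 22.4 and 23.8 TPM in the control pools against 33.6 and 37.1 TPM in the knockout-labelled pools, from 920 to 2242 reads. The replicates of each group were close and the groups lay apart, with means of 23.1 ± 1.04 and 35.4 ± 2.46 TPM (SD, n = 2 each). The log2 fold change of Rest was 0.59 (SE 0.17, 0.43 relative to all genes, adjusted p = 0.169) and stayed between 0.37 and 0.66 over the settings tried. Kdm1a, the demethylase of histone H3 lysine 4, was at 18.1, 24.4, 30.2 and 31.3 TPM, with groups apart and the log2 fold change at 0.53 (SE 0.21, adjusted p = 0.270), or 0.32 without control replicate 1.

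Rcor1, the main scaffold, was the 1 tested member whose knockout-labelled values both lay below the controls, at 31.1, 28.3, 25.7 and 27.6 TPM (log2 fold change -0.15, SE 0.17, -0.32 relative to all genes, adjusted p = 0.701). Rcor3 was at 4.89, 7.36, 5.95 and 6.27 TPM (0.02, SE 0.28) and Rcor2 at 0.521, 1.90, 0.841 and 1.78 TPM from 11 to 47 reads (0.11, SE 0.45). Both Rcor2 and Rcor3 had overlapping groups with control replicate 1 lowest. Rcor1 made up 85.2% and 75.4% of the summed TPM of the 3 scaffolds in the control pools against 79.1% and 77.4% in the knockout-labelled pools. Phf21a, whose product reads unmethylated lysine 4, was at 9.57, 12.8, 13.1 and 15.6 TPM (0.34, SE 0.24), narrowly apart, and the HMG-box subunit gene Hmg20b at 22.3, 31.9, 31.6 and 34.4 TPM (0.30, SE 0.22), with overlap.

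SIN3 had the smallest median of the 3 larger complexes, at 0.18 on the log2 scale over 8 tested members, or 0.02 relative to all genes. In SIN3, 1 tested member was higher at an unadjusted p under 0.05 (12.5%) and 2 had groups apart and higher (25%). Over all tested genes these shares were 13.4% and 36.7%. The SIN3 values ran from -0.65 to 0.60. The scaffold gene Sin3a was at 21, 28.8, 34.2 and 36.1 TPM, with groups apart and the log2 fold change at 0.50 (SE 0.21, adjusted p = 0.301), while Sin3b was at 18.4, 22.3, 20.6 and 23.4 TPM with interleaved groups (0.11, SE 0.19). Sap130, an accessory subunit gene, was at 8.64, 11.7, 15.8 and 15.8 TPM (0.60, SE 0.23, adjusted p = 0.259), with both controls below both knockout-labelled values, or 0.40 without control replicate 1.

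Sap30, a subunit that strengthens the binding of the deacetylase, had the most negative fold change of all members. It was at 40.3 and 17.9 TPM in the control pools against 14.7 and 19.3 TPM in the knockout-labelled pools, from 318, 113, 124 and 190 reads. Control replicate 1 stood apart from the other 3 libraries, which overlapped. The log2 fold change of Sap30 was -0.65 (SE 0.40, adjusted p = 0.466), and -0.09 without control replicate 1. Control replicate 1 also had the highest sum of proximal tubule markers, 42755 TPM with Kap and 11692 TPM without it, beside 8351 TPM without it in control replicate 2, and the part of these markers in the Sap30 value was not tested.

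Among the other SIN3 subunits, Sap18 was at 16.7, 18.1, 16.8 and 16.8 TPM (log2 fold change -0.05, SE 0.18) and Suds3 at 19.2, 19.3, 17.2 and 22.8 TPM (0.04, SE 0.21). Sap18 has a second copy, Sap18b on chromosome 8, at 0.947 to 2.42 TPM, and reads of near-identical copies may be split between them. Arid4a and Arid4b, which encode chromatin-binding subunits, were at 22.8, 35.8, 30.5 and 38.5 TPM and at 9.29, 15.7, 14.3 and 16.1 TPM, lowest in control replicate 1 (0.25, SE 0.27, and 0.31, SE 0.29). Brms1, named as a suppressor of breast cancer metastasis, was at 0.427, 1.07, 1.20 and 1.3 TPM from only 5, 10, 15 and 19 reads. Of its exon bases 79% lie in another annotated gene, so its low value is uncertain.

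The MIER scaffolds recruit the deacetylases through an ELM2-SANT module like that of the MTA and RCOR proteins. Mier2 was at 6.85, 8.15, 9.91 and 11.0 TPM with groups apart (log2 fold change 0.43, SE 0.23, adjusted p = 0.394), and Mier1 at 10.2, 15.6, 14.9 and 14.0 TPM with overlap (0.18, SE 0.26).

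**Figure D2:**
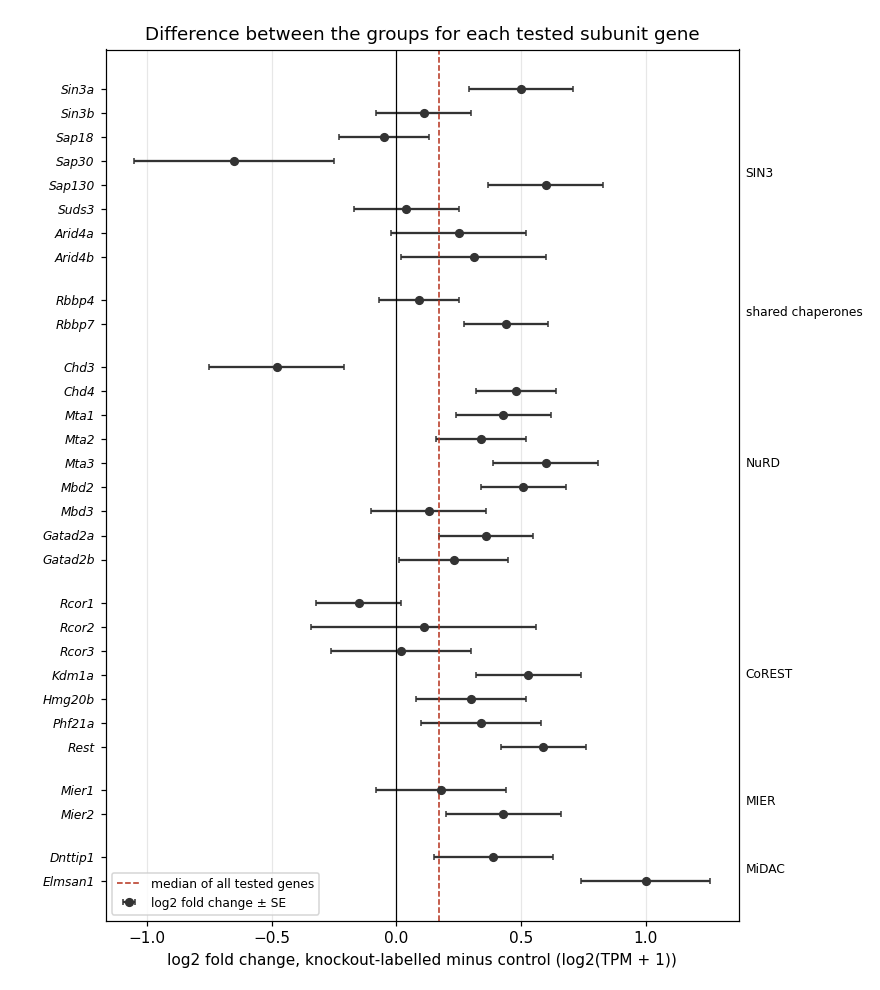
Log2 fold change of each of the 30 tested subunit genes, knockout-labelled minus control on log2(TPM + 1), with bars of 1 SE from limma (n = 2 libraries a group), grouped by complex; the dashed line is the median of all 18612 tested genes, 0.17. Elmsan1 lies farthest to the right at 1, and Sap30 and Chd3 farthest to the left at -0.65 and -0.48, each with a wide bar.

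Relative to all genes, the median was 0.02 for SIN3, 0.13 for CoREST and 0.19 for NuRD, and the values of the 3 complexes overlapped over most of their range. Leaving out control replicate 1 gave medians of -0.06, 0.01 and 0.24 in that order. Leaving out control replicate 2 gave 0.08, 0.22 and 0.13, with CoREST above NuRD. Leaving out knockout replicate 1 gave 0.10, 0.19 and 0.31, and leaving out knockout replicate 2 gave -0.07, 0.10 and 0.10. The 2 MiDAC genes were at 0.22 and 0.83 and the 2 MIER genes at 0.01 and 0.26. The difference between complexes was not tested. Within a library, the 7 CoREST genes held 109, 130, 141 and 154 TPM, the 2 MiDAC genes 20.6, 29.1, 36.7 and 45.0 TPM, the 9 NuRD genes 589, 568, 574 and 718 TPM, and the 9 SIN3 genes 157, 171, 165 and 190 TPM. The sums of CoREST and MiDAC lay above both controls in both knockout-labelled pools, and those of SIN3 and NuRD overlapped. Sums of MIER (17, 23.8, 24.8 and 24.9 TPM) and the shared chaperones (91.7, 95.8, 128 and 111 TPM) were apart and higher too. So was the sum of all members (983, 1017, 1070 and 1243 TPM). In the same unscaled TPM, 36.7% of all tested genes were apart and higher. That share is of single genes, and the share for sums of several genes was not computed.

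The ratio of 2 paralogues within a library does not depend on the scaling between libraries, and it was read for 11 pairs. In 5 of 11 pairs the groups lay apart, 4 higher and 1 lower in the knockout-labelled pools. Over all pairs of tested genes 51.4% of ratios lay apart in either direction, so the share among the paralogues was near the background. The largest shift was Chd4 over Chd3, with log2 ratios of -0.90 and -0.36 in the control pools against 0.58 and 0.11 in the knockout-labelled pools. Chd4 made up 34.9% and 43.8% of the pair in the control pools against 59.9% and 51.9% in the knockout-labelled pools, so Chd3 was the more abundant in both controls and Chd4 in both others. The difference of the mean log2 ratio was 0.97, beside an SD between replicates of 0.38 and 0.33, and it was 0.70 without control replicate 1.

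Sin3a over Sin3b was at log2 ratios of 0.20 and 0.37 in the control pools against 0.73 and 0.63 in the knockout-labelled pools, a difference of 0.40. Sin3a was thus 53.4% and 56.3% of the scaffold transcripts in the control pools against 62.4% and 60.7% in the others. Mbd2 over Mbd3 was at -0.09, 0.21, 0.58 and 0.31, a difference of 0.39 in which control replicate 2 came close to knockout replicate 2. Mta3 over Mta2 was at -2.10, -1.98, -1.68 and -1.79 (difference 0.30), and Rbbp4 over Rbbp7 at -1.02, -1.21, -1.55 and -1.39 (difference -0.35). The other 6 pairs overlapped. Mta1 over Mta2, at -0.34, -0.23, -0.16 and -0.23, and Arid4a over Arid4b, at 1.3, 1.19, 1.10 and 1.26, hardly varied between any of the libraries. Gatad2a over Gatad2b, Rcor1 over Rcor3, Rcor2 over Rcor1 and Mier1 over Mier2 differed by 0.13, -0.18, 0.45 and -0.29.

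**Figure D3:**
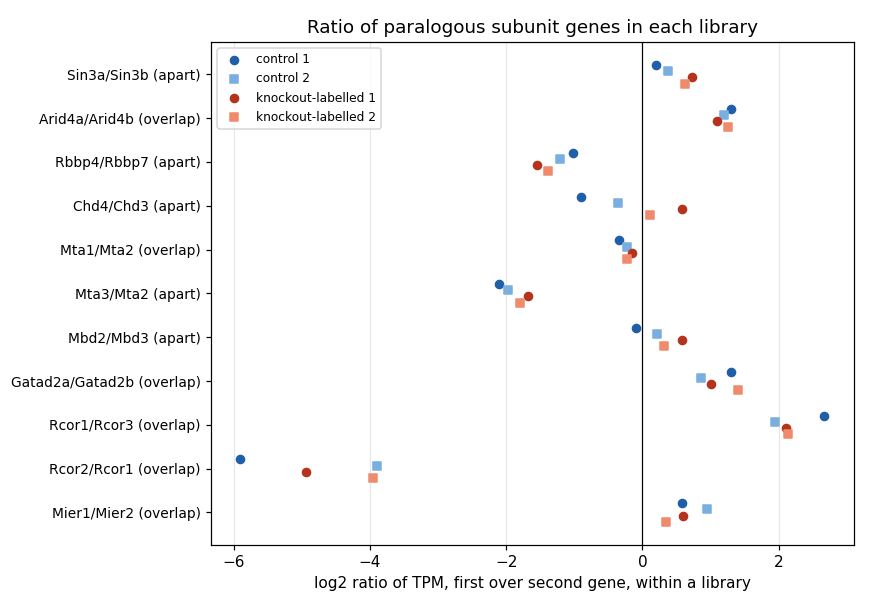
Log2 ratio of the TPM of 2 paralogous subunit genes within each library, 11 pairs, with 1 point per library (blue control, red knockout-labelled) and the word apart where the groups did not overlap. Chd4/Chd3 crosses 0 between the groups, from -0.90 and -0.36 to 0.58 and 0.11, and 6 of the 11 pairs overlap.

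Further subunits and partners were read from a list of 19 genes. Of the 17 with a row 15 were tested and 0 were called, with a median of 0.34. At an unadjusted p of 0.05, 3 passed upward (20%) and 0 downward, and 11 were apart and higher (73.3%). Over all tested genes 13.4% passed upward and 4.46% downward, and 36.7% were apart and higher. Zfp217, a zinc finger factor that binds CoREST, was at 10.7, 12.9, 20.7 and 23.3 TPM, with the log2 fold change at 0.85 (SE 0.20, adjusted p = 0.131), above every member but Elmsan1. Ing1, the histone-reading subunit of a SIN3 form, was at 10.2, 9.37, 13.3 and 17.9 TPM (0.61, SE 0.23, adjusted p = 0.258 by limma). Gse1, a CoREST partner, was at 8.91, 9.05, 12.4 and 14.9 TPM (0.55, SE 0.21, adjusted p = 0.27 by limma), and 27.9% of its exon bases lie in other genes too. Cdyl, a chromodomain corepressor gene, was at 4.05, 6.81, 8.27 and 10.7 TPM (0.73, SE 0.31). Sap25 and Zfp541 were not analysed here.

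The NCoR complex uses HDAC3 in place of HDAC1 and HDAC2 and serves as a neighbouring corepressor. Of its 6 genes 2 passed an unadjusted p of 0.05 upward (33.3%) and 0 downward, and 5 were apart and higher (83.3%). Over all tested genes 13.4% passed upward and 4.46% downward, and 36.7% were apart and higher. The median log2 fold change of the 6 genes was 0.33, or 0.17 relative to all genes, beside 0.16 for the 30 members. Gps2 was at 24.1, 29.3, 37.5 and 38.9 TPM (0.51, SE 0.18) and Tbl1x at 27.6, 30.0, 39.9 and 39.2 TPM (0.45, SE 0.16). Tbl1xr1 (0.36, SE 0.18) and Hdac3 (0.31, SE 0.17) were apart too, and so, narrowly, was the large scaffold Ncor1, at 74.4, 74.6, 74.8 and 82.9 TPM.

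REST is known to repress neuronal genes, which were read from a list. Of 24 listed, 12 had a row and 6 passed the filter of 1 TPM; 0 passed an unadjusted p of 0.05 in either direction, and the median log2 fold change was 0.13, or -0.04 relative to all genes. Syp, encoding synaptophysin, was at 1.58, 1.40, 0.858 and 0.642 TPM, apart and lower, from 28 to 55 reads (-0.51, SE 0.31, adjusted p = 0.463). L1cam, a cell adhesion gene that the kidney epithelium also expresses, was at 36.7, 31.6, 52.6 and 33.0 TPM and Syn1 at 0.680, 2.21, 1.40 and 1.99 TPM, both with overlapping groups. The other 12 were not analysed here.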

How the data were processed

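The authors deposited 1 table of TPM values, 1 column per library, and the 4 columns were matched to samples by name. Per the submitters' processing notes, the build was GRCm38.p6 and the tools were DESeq2 1.30.1, featureCounts 2.0.0, STAR 2.7.9 and fastp 0.20, with no role given. Strand setting, annotation and gene filter: not given in the sources used here. Symbols and positions came from GENCODE M21 (GRCm38). TPM times exon length gave whole reads for 97.2% of the 22809 listed genes, within 1e-06. Chd3 carries a later ID version, and its length was fitted as the shortest that gives whole reads in all 4 libraries, within 1e-05.

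limma 3.58.1 in R 4.3.3 (lmFit, eBayes with trend) was run on log2(TPM + 1) for 18612 genes with a mean of at least 1 TPM over the 4 libraries, without covariates. The p-values were adjusted over all of them (Benjamini-Hochberg), with calls at under 0.05. The script was tested on simulated data, with planted changes larger than that of any member. That check does not show how the test performs at the sizes reported here. The alternatives were a pseudocount of 0.1, no filter, quantile normalization, median-ratio scaling, a replicate block, limma without trend, each library left out, and limma-voom on the recovered reads. An exact permutation test of 2 against 2 libraries has a smallest two-sided p of 0.333, so none was run.

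The members, lists and alternatives were chosen with earlier results of these data known. All members are named, and of each other pathway list up to 4 tested genes with the smallest p; 1 of these is not reported here. Promoter windows are RefSeq's on GRCm38.p6. Plots used matplotlib 3.10.9, with Python 3.11.15, numpy 2.4.6 and pandas 2.3.3.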

Additional observations from a re-analysis of the deposited data

How the results depend on the processing

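Across 11 alternatives 19 of 30 members kept the sign of their fold change and 11 did not, all of these with a main value of 0.31 or less in size. With median-ratio scaling 1 member was higher at an unadjusted p under 0.05, 6 had groups apart and lower, and the CoREST median was 0.10 relative to all genes; the log2 fold change was -0.12 for Sin3b, -0.18 for Suds3, -0.14 for Rbbp4, -0.10 for Mbd3, -0.18 for Rcor3, -0.04 for Mier1 and -0.22 for Hdac2. With quantile normalization 4 were higher, the CoREST median was 0.16, and the values were -0.07 for Sin3b, -0.14 for Suds3, -0.04 for Rbbp4, -0.17 for Rcor2, -0.22 for Rcor3, -0.05 for Mier1 and -0.17 for Hdac2. With limma-voom the CoREST median was 0.15 and the values were -0.01 for Suds3, -0.02 for Rcor3 and -0.04 for Hdac2. With limma without trend 3 were higher, and with a pseudocount of 0.1 the CoREST median was 0.11. For these changes the cause was not tested.

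With each library left out, the members called ranged from 0 to 2, those higher from 0 to 16, those lower from 0 to 1 and the CoREST median from 0.01 to 0.22. The log2 fold change ranged from -0.02 to 0.24 for Sin3b, -0.10 to 0.01 for Sap18, -0.15 to 0.23 for Suds3, -0.06 to 0.57 for Arid4a, -0.04 to 0.65 for Arid4b, -0.14 to 0.40 for Mbd3, 0.00 to 0.46 for Gatad2b, -0.36 to 0.57 for Rcor2, -0.23 to 0.27 for Rcor3, -0.11 to 0.46 for Mier1 and -0.12 to 0.13 for Hdac2. A lone library is then assumed to vary like the other group. With the replicate block 8 members were higher and 0 were called; deviations of same-numbered libraries correlated at 0.14 over 18612 genes, and nothing in the labels says that a number marks a pair. With 5 to 19 reads for Brms1 and 11 to 47 for Rcor2, differences in these genes were limited by depth.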
